A study of Homo sapiens with 24 samples.

Results

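The effect of PD-L1 siRNA on resting clear cell renal carcinoma cells was measured in 6 of the 24 RNA-Seq libraries of the study. These were the 3 libraries labelled 786-O with control siRNA (Cnsi) and the 3 labelled 786-O with siRNA against PD-L1 (PD-L1si), all without IFNγ, and they were taken by their sample titles. 786-O and A498 are established human lines of clear cell renal cell carcinoma, and both groups compared came from the line labelled 786-O. Both were transfected at 20 nM with RNAiMAX, Cnsi with a non-targeting pool and PD-L1si with a pool of siRNAs against *CD274*. The cells were left for 24 hours after transfection before the period in which the other groups received IFNγ at 50 ng/mL for 24 hours. Both groups therefore carried siRNA and the transfection reagent, and neither received IFNγ. The labels call the PD-L1 groups knockout cells, whereas the study describes a transient siRNA, which leaves the gene intact. The RNA-Seq methods of the study list 3 groups, without PD-L1si in the absence of IFNγ, and that group rests here on the labels, which give 4. The siRNA sequences are not given in the sources used here, and the labels do not say that the replicates were separate cultures. The p-values and standard errors (SE) rest on a spread estimated over all 12 libraries labelled 786-O, with and without IFNγ, and this spread may be technical. The line and the sequencing instrument cannot be told apart, and the comparison was therefore made within the label.

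PD-L1, the product of *CD274*, is a membrane protein that binds PD-1 on T cells and restrains them, and IFNγ is its best known inducer. Clear cell renal cell carcinoma usually lacks VHL, so that HIF target genes are active without low oxygen. An siRNA is loaded into the RNA-induced silencing complex and lowers the mRNA that its guide strand pairs with. Guide strands can also lower other mRNAs whose 3′ UTR pairs with the seed of the guide (bases 2 to 8), as a miRNA does.

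The deposited values were raw counts of reads on genes, with 26807875 to 30245244 counts in the 3 Cnsi libraries and 27710032 to 28835798 in the 3 PD-L1si libraries. Levels are given as CPM, which are the counts scaled to library size with TMM factors. Mitochondrial transcripts took 5.13% to 7.43% of the counts in Cnsi and 6.05%, 6.61% and 9.84% in PD-L1si, with the highest share in PD-L1si replicate 1. The part of this share in the results was not tested, but the values without each library are given where it changed a call. Of the rows of the table, 4670 were at 0 in all 12 libraries labelled 786-O, and 1475 of these held over 1000 counts in the 12 libraries labelled A498, among them *ACTB* and *IFNGR1*. Of these 1475 rows, 1.29% carried the same Ensembl version as the later annotation used here, against 70.9% of the other rows with over 1000 counts. Such rows, which include *JAK2* and *IFNGR1*, were taken as not measured under this label.

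The markers listed for kidney and renal carcinoma summed to far more than those listed for other cell types. The 19 tested summed to 4628 to 4872 CPM in Cnsi and 4836 to 5054 CPM in PD-L1si. Of the 27 listed 7 were at 0 in all 12 libraries, and 3 of the 19 tested were under 1 CPM in all 6. *PAX8*, a transcription factor of renal epithelium, was at 205 to 222 CPM in Cnsi and 202 to 231 CPM in PD-L1si. The leukocyte markers summed to 7.32 to 9.26 CPM in Cnsi and 6.36 to 7.25 CPM in PD-L1si, and of the 7 tested 4 were under 1 CPM in all 6 libraries. The 5 endothelial markers tested summed to 69.3 to 74.9 CPM in Cnsi and 70.7 to 73.3 CPM in PD-L1si, nearly all of it *EGFL7*. The 6 fibroblast and mural markers tested summed to 33.6 to 35.9 CPM in Cnsi and 40.5 to 45.0 CPM in PD-L1si, with most of the sum from *ACTA2*, a smooth muscle actin. *PAX2*, *VWF*, *COL1A1*, *COL1A2* and *DCN* were among the rows at 0 in all 12 libraries. *HIF1A* was at 420 to 444 CPM in Cnsi. Its counts there were 11756 to 13458, against 795 to 855 in the Cnsi libraries labelled A498. 786-O cells are known to lack HIF-1α protein, and the line is therefore named here only as the labels give it.

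Treatment with PD-L1si lowered its target. *CD274* (ENSG00000120217.14, chr9:5450503-5470566 of GRCh38, plus strand) had 121, 117 and 122 counts with Cnsi and 42, 37 and 58 with PD-L1si. These were 3.87, 4.18 and 4.18 CPM against 1.46, 1.21 and 1.90 CPM, and the groups did not overlap. The log2 fold change was −1.42 ± 0.14 (SE, n = 3 per group), so that 0.375 of the control level remained, with an adjusted p of 9.7e-08 by the quasi-likelihood test of edgeR with Benjamini-Hochberg adjustment. In RNA from whole cultures a lower level in each cell and fewer cells with the transcript cannot be told apart. *PDCD1LG2*, which encodes the other PD-1 ligand, PD-L2, had 6, 4 and 2 counts with Cnsi and 1, 1 and 3 with PD-L1si, too few to show a difference (adjusted p = 0.40 by edgeR).

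Beyond the target, the siRNA changed many genes by moderate amounts. Calls needed both an adjusted p under 0.05 and a change of more than 0.5, up or down, on the log2 scale. Of the 21209 genes tested, 597 (2.81%) were called, 252 higher with PD-L1si (1.19%) and 345 lower (1.63%). The adjusted p alone was under 0.05 in 2721 genes (12.8%), and the median log2 fold change over all genes tested was −0.0003. Among the called genes 80 rose and 65 fell by more than 1 on the log2 scale. The genes that fell were mostly protein-coding (265 of 345), and those that rose less so, with 142 protein-coding genes and 90 long non-coding RNAs among 252.

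**Figure D1:**
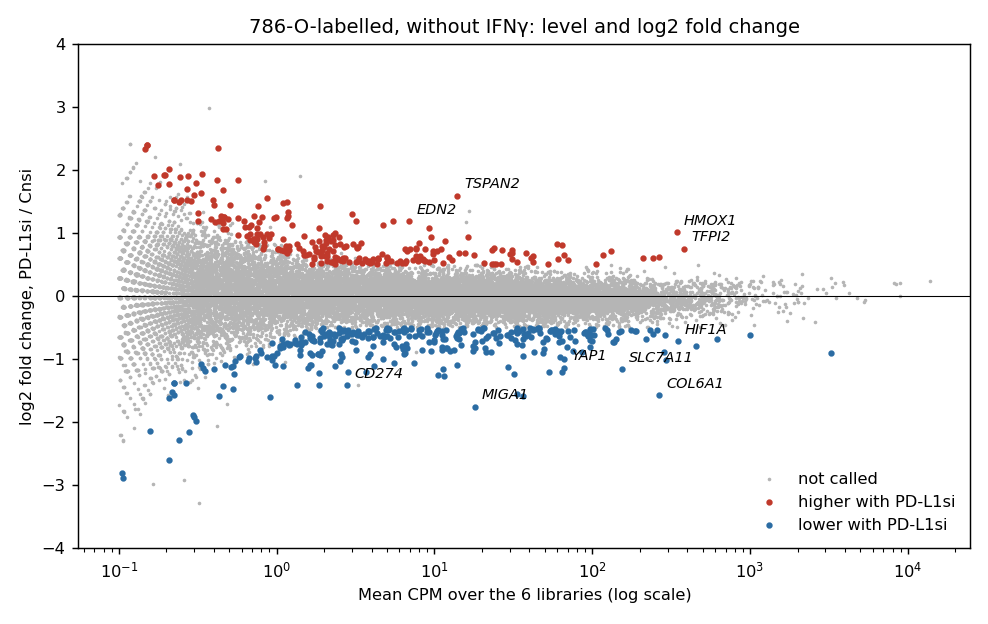
Mean CPM over the 6 libraries (log axis) against the log2 fold change of PD-L1si over Cnsi for the 19944 genes at a mean of 0.1 CPM or more, with called genes in colour and 1 gene beyond the axis. *MIGA1* (−1.76) and *COL6A1* (−1.58) lie lowest among the genes labelled, and *HMOX1* (1.02) and *TFPI2* (0.75) are the highest expressed labelled genes above 0.

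The falls were larger than that of *CD274* for 4 well expressed genes. *MIGA1*, which encodes a mitochondrial outer membrane protein that promotes fusion, was at 28.9, 25.9 and 28.5 CPM with Cnsi and 8.29, 7.83 and 8.56 CPM with PD-L1si. *CETN2*, a centrin of the centrioles and of DNA repair, was at 53.4, 55.0 and 56.5 CPM against 17.6, 19.6 and 17.7 CPM. *COL6A1*, a chain of collagen VI, was at 391, 400 and 400 CPM against 143, 122 and 135 CPM. These levels with PD-L1si were about 0.30 to 0.34 of the control, since the log2 fold changes were −1.76 ± 0.08 for *MIGA1*, −1.58 ± 0.06 for *CETN2* and −1.58 ± 0.13 for *COL6A1* (SE, n = 3 per group). *CDC42SE2*, a small effector of the GTPase CDC42, fell by 1.55 ± 0.06 on the log2 scale, from 49.8, 47.4 and 53.05 CPM to 17.3, 17.7 and 16.2 CPM. All 4 were called with adjusted p-values of 1.7e-14, 6.0e-15, 4.4e-05 and 2.9e-15 in the order named (edgeR). The Cnsi libraries under IFNγ, which entered the same fit, had *COL6A1* at 328, 485 and 459 CPM.

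The 15 largest falls among called genes with a mean of at least 1 CPM and no overlap between groups ran from −1.76 to −1.20. Besides *CD274* and the 4 genes above they were *RPL9P7* (−1.41), *MATK* (−1.41), *SLC7A11-AS1* (−1.27), *DNAL1* (−1.25), *ACKR3* (−1.24), *GLRB* (−1.22), *CHIC1* (−1.21), *PEG10* (−1.21), *NUP58* (−1.21) and *FAM167A* (−1.20). *ACKR3* encodes a scavenging receptor for the chemokine CXCL12, and its levels were 45.1, 44.5 and 45.3 CPM with Cnsi against 18.7, 21.2 and 17.1 CPM with PD-L1si. *PEG10*, an imprinted gene derived from a retrotransposon, was at 88.4 to 94.3 CPM against 35.7 to 41.1 CPM. *NUP58*, a nucleoporin, was at 73.2 to 76.8 CPM against 31.1 to 33.2 CPM. *RPL9P7* is a pseudogene that can share reads with its parent gene, and *SLC7A11-AS1* lies antisense to *SLC7A11*, so both are uncertain. The call of *RPL9P7* was lost in a fit of only the 6 libraries (log2 fold change −1.40).

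The 15 largest rises by the same rule ran from 1.08 to 1.60 and belonged to genes of low level. *TSPAN2*, a tetraspanin, was at 7.13, 6.97 and 6.65 CPM with Cnsi and at 19.1, 22.9 and 20.7 CPM with PD-L1si, a log2 fold change of 1.60 ± 0.32 (SE, n = 3 per group). It was called at an adjusted p of 0.012 (edgeR), and the call was lost without Cnsi replicate 3 (1.57). In the Cnsi libraries under IFNγ, which entered the same fit, *TSPAN2* was at 19.0, 7.99 and 7.57 CPM. The others were *ISLR* (1.49), *PPP1CB-DT* (1.48), *BMF* (1.43), *COL20A1* (1.33), *PKHD1* (1.29), *RPL41P5* (1.27), ENSG00000272079 (1.24), *NKAIN4* (1.20), *EDN2* (1.19), *PDE6B* (1.19), *SEMA5B* (1.13), ENSG00000268573 (1.12), *LIPH* (1.08) and *ANXA13* (1.08). *BMF* encodes a pro-apoptotic protein with only a BH3 domain, and was at 0.86 to 1.32 CPM with Cnsi and 2.10 to 3.21 CPM with PD-L1si. *EDN2*, a vasoconstrictor peptide of the endothelin family, was at 3.94 to 4.36 CPM against 8.68 to 10.8 CPM. *PKHD1*, the gene of autosomal recessive polycystic kidney disease, was at 1.64 to 1.89 CPM against 3.61 to 4.65 CPM. *RPL41P5* is a pseudogene and uncertain for the same reason as *RPL9P7*.

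**Figure D2:**
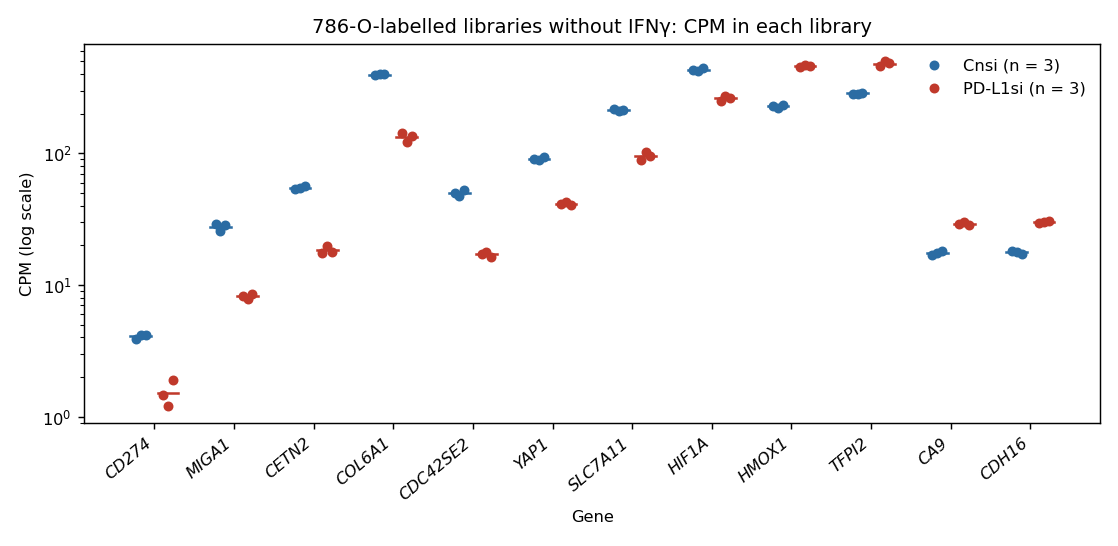
CPM (log axis) of 12 genes in each of the 3 Cnsi and 3 PD-L1si libraries, with points for libraries and bars for means. In each of the 12 genes, all of them called on these same values, the groups do not overlap. *CD274* was at 3.87 to 4.18 CPM against 1.21 to 1.90 CPM and *HMOX1* at 223 to 231 CPM against 451 to 468 CPM.

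A short word was more frequent in the 3′ UTRs of the genes that fell. Every 7-base word was looked for in the 3′ UTR of the canonical transcript (GENCODE, GRCh38) of the 10742 protein-coding genes with a mean of at least 1 CPM, on the transcript strand. The 16152 words held by at least 50 genes were ranked by the mean log2 fold change of the genes with the word minus that of the genes without it. The word GCGAATT stood first, with means of −0.29 in the 132 genes that held it and −0.02 in the others. The words that followed, AGCGAAT and CGAATTA, overlap it by all but a base. GCGAATT was in the 3′ UTR of 12.2% of the 246 called genes that fell in this set, of 1.80% of the 111 that rose, and of 1.23% of all genes. Its reverse complement AATTCGC stood at rank 148, with 1.22% of the genes that fell. The word and the ranking were chosen after the values were seen. By the difference over its standard error GCGAATT was also first. It was second, after TTTATTT, where the difference was multiplied by the square root of the number of genes with the word. TTTATTT is a more common word, in the 3′ UTR of 69.5% of the genes that fell and 48.6% of all genes.

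Of the 15 largest falls 13 had such a transcript, and 6 of these held the word in the 3′ UTR, among them the 4 largest. *CD274* held it in its coding sequence. The sites are shown because they are a stretch that 6 of the 15 largest falls and the target have in common, each with 10 bases on either side, from 5′ to 3′ on the transcript strand, with the word in capitals.
CD274, coding sequence, chr9:5457388-5457414 of GRCh38, plus strand: ccgactacaaGCGAATTactgtgaaag
MIGA1, 3′ UTR, chr1:77877147-77877173, plus strand: tttttaaaaaGCGAATTtttagattaa
CETN2, 3′ UTR, chrX:152827633-152827659, minus strand: aaaatgacctGCGAATTaccctaattc
COL6A1, 3′ UTR, chr21:46004079-46004105, plus strand: aaaatgtgatGCGAATTttcccgacca
CDC42SE2, 3′ UTR, chr5:131394148-131394174, plus strand: ttaaattgaaGCGAATTaaataggatt
DNAL1, 3′ UTR, chr14:73701505-73701531, plus strand: tagaagctttGCGAATTatcattccca
CHIC1, 3′ UTR, chrX:73686664-73686690, plus strand: taatctacgaGCGAATTtgccctcctt
Counted without a break around the word, *CDC42SE2* shared 10 bases with the site in *CD274*, *MIGA1* and *CETN2* 9, *DNAL1* and *CHIC1* 8, and *COL6A1* the word alone. GCGAATT also lay in the coding sequence of 2.20% of the 10742 genes, and a match is a description and not a site of action. Whether the word pairs with the seed of an siRNA of the pool was not tested, since their sequences are not given in the sources used here.

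Of the 132 genes with the word 30 were called lower with PD-L1si (22.7%), against 2.29% of all 10742 genes, and 2 were called higher. The word was chosen by these same fold changes, so the shares and medians of this paragraph describe that choice and do not test it. The median log2 fold change was −0.18 with the word and −0.02 without it, and 79.5% of the genes with the word were below 0 against 54.8% of those without it. The other 24 genes lowered included *LMTK2* (−1.003), *FYCO1* (−0.95), *PRKAR2A* (−0.75), a regulatory subunit of protein kinase A, *ULK1* (−0.72), the kinase that starts autophagy, and *IL1RAP* (−0.68), a coreceptor of IL-1. *RPTOR* (−0.61), the scaffold of mTORC1, also held it. Genes with the word had long 3′ UTRs, with a median of 3614.5 bases against 1330 for all genes and 2045 for the genes that fell. Among 3′ UTRs of at least 3000 bases, 20.3% of the 79 genes with the word and 2.93% of the 2286 without it were called lower. Among shorter ones these shares were 26.4% of 53 and 1.79% of 8324. The part of 3′ UTR length in the falls was not tested.

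The word was also first in the 3 other comparisons of PD-L1si with Cnsi, whose libraries had not been used to choose it. Under IFNγ in the libraries labelled 786-O, 28 of the 132 genes (21.2%) were called lower, against 2.15% of all genes. In the libraries labelled A498 these shares were 22.9% against 5.97% without IFNγ and 27.5% against 5.63% under IFNγ, each over 131 genes with the word. The median log2 fold changes of the genes with the word were −0.16, −0.17 and −0.22 in the order named, and those of the genes without it −0.0049, −0.01 and 0.02. These comparisons share no library with each other, although the same siRNA reagents are described for both lines.

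**Figure D3:**
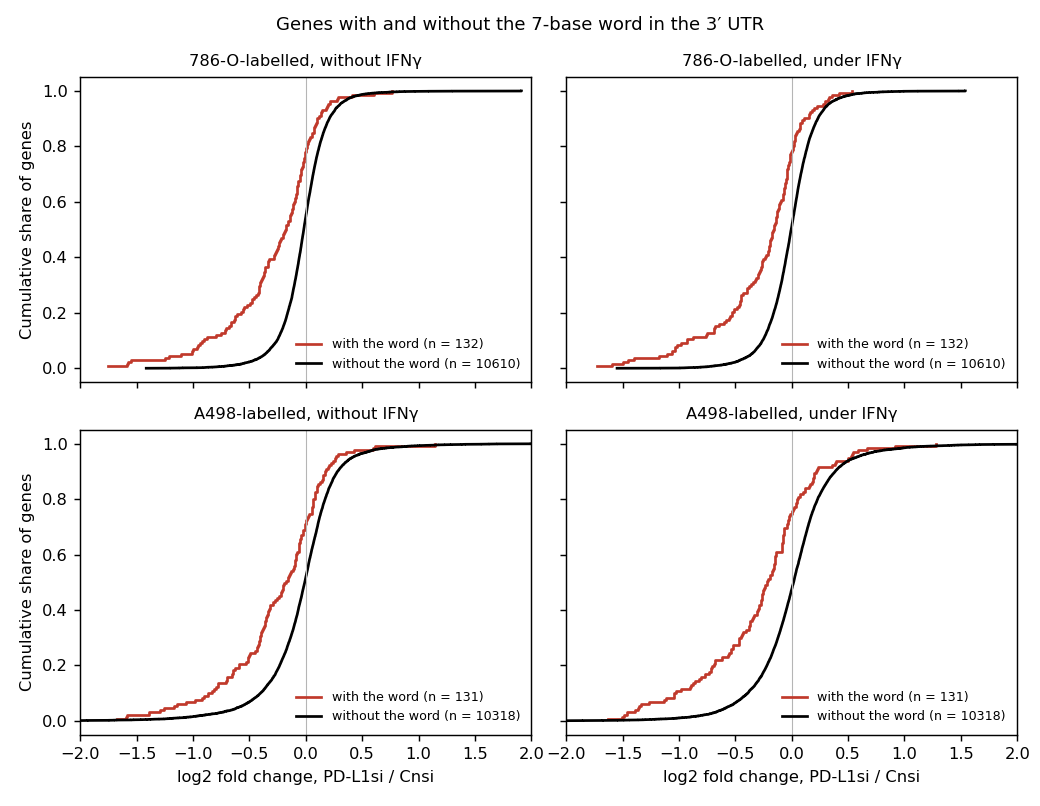
Cumulative share of genes against log2 fold change of PD-L1si over Cnsi in 4 comparisons, for genes with the 7-base word in the 3′ UTR (red, 132 or 131 genes) and without it (black). In each panel the red line lies to the left of the black over most of the range. The medians were −0.18 and −0.02 in the libraries labelled 786-O without IFNγ, whose values chose the word.

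Many genes that fell did not hold the word. *YAP1*, the transcriptional coactivator restrained by Hippo signalling, was at 90.0, 89.2 and 94.3 CPM with Cnsi and at 41.5, 42.4 and 40.7 CPM with PD-L1si (log2 fold change −1.13 ± 0.06). *SLC7A11*, the cystine importer of glutathione synthesis, was at 216, 211 and 212 CPM against 89.6, 102 and 95.0 CPM (−1.16 ± 0.05). *HIF1A* was at 430, 420 and 444 CPM against 250, 275 and 264 CPM (−0.72 ± 0.05). The groups did not overlap in any of the 3. The calls rest on these same values, so this separation is not further support for them. The adjusted p-values were 1.1e-12, 3.6e-14 and 7.0e-11 in the order named (edgeR, n = 3 per group).

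The lists of interferon, antigen presentation and RNA sensing genes held 0 or 1 called gene each, where 2.81% of all genes were called. Of 51 interferon-stimulated genes tested only *IFI6* was called, at 17.0 to 22.8 CPM with Cnsi and 26.0 to 28.7 CPM with PD-L1si, and its log2 fold change of 0.51 lay at the threshold and fell to between 0.43 and 0.50 without Cnsi replicate 1 or 2, without PD-L1si replicate 2, or with no count filter. The median of the list was −0.02, and 14 of the 51 had an adjusted p under 0.05 at any size of change, beside 12.8% of all genes. Of 17 genes of the IFNγ receptor and JAK-STAT pathway *SOCS1*, the feedback inhibitor of JAK kinases, was higher (1.14 to 1.44 CPM against 2.06 to 2.82 CPM, 0.88 ± 0.16), with a median of 0.03 for the list. *IRF1*, the transcription factor that carries much of the IFNγ response, was at 37.8 to 39.2 CPM against 39.2 to 41.6 CPM and was not called. Of 28 antigen presentation genes *HLA-DRA*, a chain of HLA class II, was lower (−0.52), a call lost without Cnsi replicate 1, PD-L1si replicate 1 or PD-L1si replicate 3 (−0.49 to −0.38), and the median was −0.07. *IDO1*, which degrades tryptophan, stayed at 0.39 to 0.73 CPM in all 6 libraries and *CXCL10* at 0.11 to 0.43 CPM, and neither was called. Sensors and machinery of small and foreign RNA had no called member of 24, with *DHX58* nearest at 0.28 (adjusted p = 0.0013, edgeR). In that list 9 genes had an unadjusted p under 0.05 by edgeR, and DESeq2 called 0. The adjusted p was under 0.05 in 5 of these 24, in 2 of the 17 JAK-STAT genes and in 7 of the 28 antigen presentation genes.

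Among checkpoint ligands and PD-L1 partners *CD274* was the single call of 24, and among its neighbours at 9p24 the single call of 16. In 2 of these 24 and 4 of these 16 the adjusted p was under 0.05. Beside the counts of this paragraph, 2.81% of all genes were called, 1.19% higher and 1.63% lower. In TNF and NF-κB signalling *C3*, the central complement component, was the single call of 27. It was at 201 to 215 CPM with Cnsi and 309 to 330 CPM with PD-L1si (0.62 ± 0.06). Of the 27 genes 11 had an adjusted p under 0.05, beside 12.8% of all genes, and the list median was −0.08. *TNFAIP3* (−0.04), *TRAF1* (−0.03) and *ATF3* (0.14) were not called. Of 33 chemokines, interleukins and growth factors *CXCL14* (0.58) and *CX3CL1* (0.57) were higher and *GDF15* (−0.54) and *AREG* (−0.72) lower. In 11 of these 33 the adjusted p was under 0.05. *CX3CL1* was at 1.82 to 2.18 CPM against 2.88 to 3.18 CPM and lost its call without Cnsi replicate 1 (0.48). *AREG*, an EGF receptor ligand, lost its call without Cnsi replicate 2, PD-L1si replicate 1 or PD-L1si replicate 3 (−0.70 to −0.56). Of 28 AP-1 and immediate early genes *JUND* (−0.54) and *DUSP4* (−0.64) were lower, with a list median of −0.19 against −0.0003 over all genes, and 11 of the 28 had an adjusted p under 0.05, as had 12.8% of all genes. The call of *JUND* was lost without Cnsi replicate 3 or PD-L1si replicate 2 (−0.48 and −0.46).

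Of 32 HIF target genes tested 4 were called higher, among them *CA9*, *ANGPTL4* and *BHLHE41*, and *HIF1A* itself was lower. Over all genes 1.19% were called higher and 1.63% lower. The list median was −0.02, and 13 of the 32 had an adjusted p under 0.05, beside 12.8% of all genes. *CA9*, the carbonic anhydrase used as a marker of this cancer, was at 16.9, 17.4 and 18.2 CPM with Cnsi and 28.9, 30.01 and 28.4 CPM with PD-L1si (0.73 ± 0.07, adjusted p = 6.5e-08, edgeR). *ANGPTL4*, an inhibitor of lipoprotein lipase, was at 99.2 to 101 CPM against 159 to 167 CPM (0.71 ± 0.09). *BHLHE41* was at 6.79 to 7.47 CPM against 9.43 to 11.1 CPM, and its call was lost without PD-L1si replicate 3 (0.49). Of the 27 kidney and renal carcinoma markers listed, 7 were at 0 in all 12 libraries and 19 were tested. In 9 of the 19 the adjusted p was under 0.05, beside 12.8% of all genes. Of the 19 tested 5 were called higher, where 1.19% of all genes were, and 0 lower, with a median of 0.26. Besides *CA9* they were *CDH16*, a kidney cadherin (17.2 to 18.1 CPM against 29.6 to 30.8 CPM, 0.77), *LHX1* (0.54), *SLC17A3* (0.77) and *KRT7* (0.83), the last at 0.79 to 1.87 CPM and not called without Cnsi replicate 2 or PD-L1si replicate 3.

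Of 30 NRF2 and oxidative stress genes *HMOX1* was called higher and *SLC7A11*, *ABCC1* and *CAT* lower, where 1.19% of all genes were called higher and 1.63% lower. The list median was −0.13, and 23 of the 30 were below 0. The adjusted p was under 0.05 in 13 of the 30, beside 12.8% of all genes. *HMOX1*, the heme oxygenase induced by oxidative stress, was at 228, 223 and 231 CPM with Cnsi and 451, 468 and 460 CPM with PD-L1si, which is 2.02 times as high (1.02 ± 0.05, adjusted p = 3.0e-14, edgeR). *ABCC1*, an exporter of glutathione conjugates, was at 360 to 375 CPM against 188 to 208 CPM (−0.89), and *CAT*, catalase, at 282 to 301 CPM against 183 to 213 CPM (−0.61).

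The lists of central metabolism held 0 or 1 called gene each, where 2.81% of all genes were called. At any size of change, 12.8% of all genes had an adjusted p under 0.05. So had 7 of 28 glycolysis, 7 of 23 glutamine and amino acid transport and 6 of 26 tryptophan and NAD genes. For cholesterol and fatty acid synthesis this was 7 of 32, and for oxidative phosphorylation 3 of 45. Of 28 glycolysis genes *HK1*, a hexokinase, was lower (148 to 155 CPM against 91.7 to 105 CPM, −0.61), and the list median was −0.03. Of 23 genes of glutamine metabolism and amino acid transport *SLC7A11* was the single call, with a median of −0.12. *SLC1A5*, the main glutamine importer, was at 400 to 425 CPM against 325 to 330 CPM (−0.33, adjusted p = 1.1e-05, edgeR), below the fold threshold. Of 26 genes of tryptophan and NAD metabolism *KYNU*, kynureninase, was lower (71.5 to 79.0 CPM against 48.0 to 56.7 CPM, −0.56), with a median of −0.06. *NAMPT*, which recycles nicotinamide to NAD, was at 1199 to 1249 CPM against 833 to 956 CPM (−0.46) and passed the fold threshold in the fit without PD-L1si replicate 2 (−0.52). *QPRT* (0.0091), *AFMID* (−0.04) and *KMO* (−0.18) were not called. Of 32 genes of cholesterol and fatty acid synthesis 0 were called, with 11 at an unadjusted p under 0.05 by edgeR and 0 called by DESeq2. *FADS1*, a fatty acid desaturase, was the nearest at −0.44. Oxidative phosphorylation had 0 called of 45, 5 at an unadjusted p under 0.05 by edgeR and 0 called by DESeq2, with *NDUFA10* at 0.26.

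The lists of growth, survival and stress signalling held 0 to 2 called genes each, again beside 2.81% of all genes. Of 49 cell cycle and DNA replication genes 0 were called by edgeR or DESeq2, while 28 had an unadjusted p under 0.05 by edgeR. In 15 of the 49 the adjusted p was under 0.05, beside 12.8% of all genes. Of the 49 genes 39 were below 0, with a median of −0.10 against −0.0003 over all genes tested. *CDK4* was at 253 to 272 CPM against 180 to 194 CPM (−0.49) and passed the fold threshold without Cnsi replicate 2 or PD-L1si replicate 2 (−0.52). Of 28 p53 targets and apoptosis genes *MCL1*, an anti-apoptotic BCL2 protein, was lower (169 to 183 CPM against 108 to 113 CPM, −0.68), with a median of −0.05. In that list 12 of the 28 had an adjusted p under 0.05, beside 12.8% of all genes. Of 33 RAS-MAPK and PI3K-AKT-mTOR genes *RPTOR* (−0.61) and *IRS2* (−0.54), an adaptor of the insulin receptor, were lower. The call of *IRS2* was lost without PD-L1si replicate 2 (−0.48). The list median was −0.03, and 6 of the 33 had an adjusted p under 0.05. Of 29 genes of the integrated stress response and unfolded protein response *TRIB3* was lower (−0.55), the median was −0.20, and 15 had an adjusted p under 0.05, beside 12.8% of all genes.

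Of 49 genes of matrix, integrins and EMT 1 was higher and 3 were lower, with a median of 0.06. The 3 were *COL6A1*, *COL8A1* (−0.59) and *SNAI2* (−1.10), a transcriptional repressor that acts in EMT. Beside the counts of this paragraph, 1.19% of all genes were called higher and 1.63% lower. At any size of change, 12.8% of all genes had an adjusted p under 0.05. So had 13 of the 49 genes above, 13 of 34 TGF-β and BMP genes and 6 of 32 Wnt and Hippo genes. For complement and coagulation this was 11 of 29, for lysosome and endosome 7 of 30, and for O-glycan, fucose and sulfate transfer 10 of 31. Of 34 TGF-β and BMP genes *TGFBR1*, the type I receptor, was lower (34.9 to 37.0 CPM against 21.6 to 24.7 CPM, −0.62), as was *INHBB* (−0.53), and the median was −0.09. The call of *INHBB* was lost without Cnsi replicate 3 or PD-L1si replicate 1 (−0.50 and −0.49). *YAP1* was the single call of 32 Wnt and Hippo genes (median 0.0021). Of 29 complement and coagulation genes 3 were higher, among them *TFPI2*, a protease inhibitor, and *C3*, and *C1S*, a protease of the classical pathway, was lower, with a median of 0.09. *TFPI2* was at 284 to 287 CPM against 460 to 501 CPM (0.75), and *C1S* at 557 to 593 CPM against 327 to 348 CPM (−0.79). Of 30 lysosome and endosome genes *ATP6V1B2*, a subunit of the proton pump, was lower (−0.69), with a median of −0.08. Of 31 genes of O-glycan, fucose and sulfate transfer *CHST11* was lower (117 to 119 CPM against 73.9 to 78.9 CPM, −0.62) and *A4GNT* was called higher on 6, 3 and 1 counts against 17, 12 and 10, with a median of −0.04. The call of *A4GNT* was lost with DESeq2 and without Cnsi replicate 2, Cnsi replicate 3 or PD-L1si replicate 1. *CHST2* (−0.43), *FUT6* and *FGF14*, the last 2 under 1 CPM, were not called. Of the leukocyte, endothelial and fibroblast markers 0 of 7, 0 of 5 and 0 of 6 were called by edgeR and by DESeq2, with 1, 0 and 1 at an unadjusted p under 0.05 and *ITGAM* (−0.31) and *ACTA2* (0.36) the nearest of the leukocyte and fibroblast lists. *KDR*, the nearest of the endothelial list, had 1 count in the 6 libraries together.

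**Figure D4:**
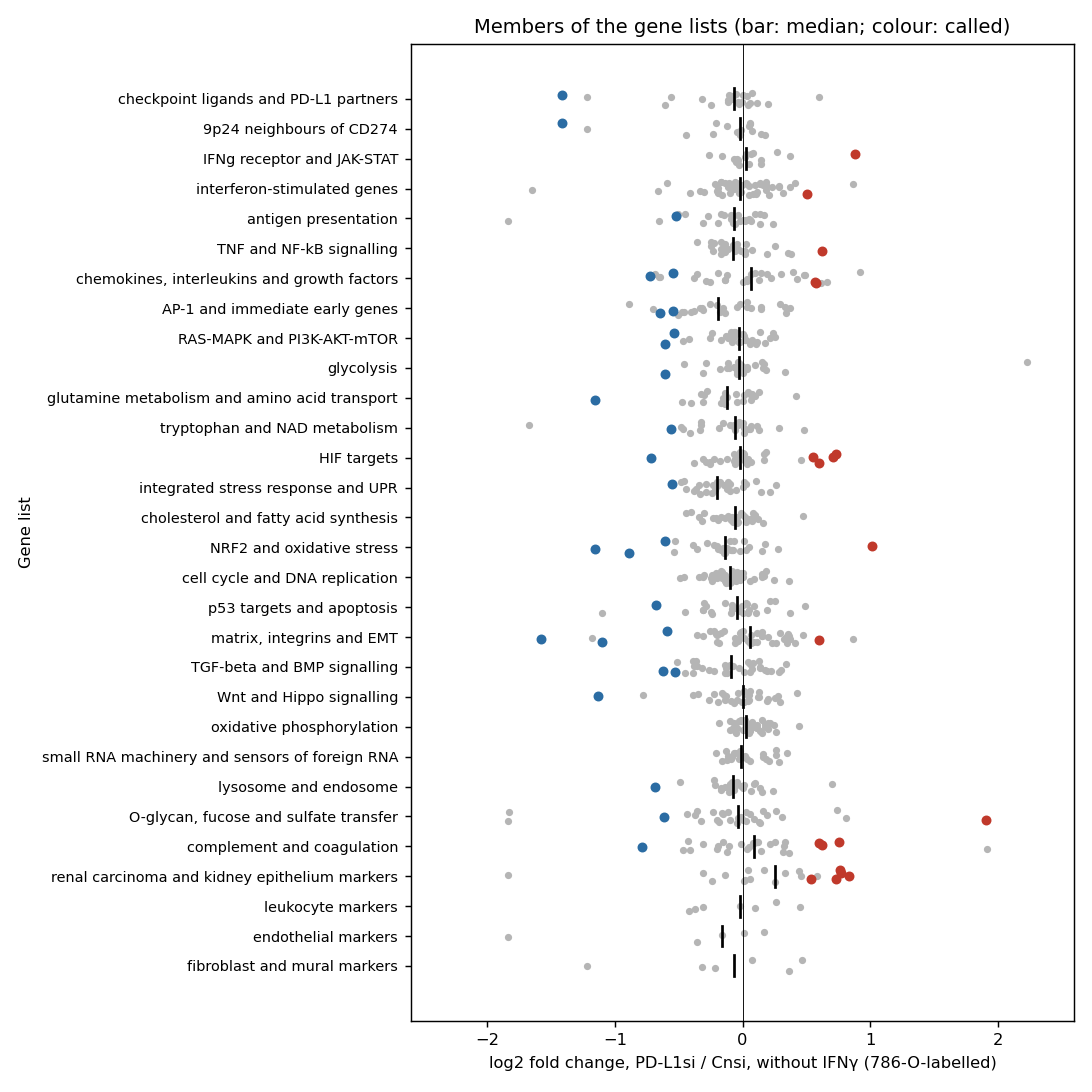
Log2 fold change of PD-L1si over Cnsi without IFNγ for the tested members of 30 gene lists, with a black bar at each list's median and called members in red (higher) or blue (lower). Most medians lie near 0, the 19 kidney and renal carcinoma markers have a median of 0.26, and the lowest medians are those of the integrated stress response and UPR (−0.20) and of the AP-1 and immediate early genes (−0.19).

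The same siRNA comparison was made under IFNγ in 6 other libraries with the same label. There 643 of 21209 genes (3.03%) were called, 274 higher and 369 lower. Of the 597 genes called without IFNγ 245 (41.0%) were also called under IFNγ, all 245 in the same direction, and they were 38.1% of the genes called under IFNγ. Of these 167 fell and 78 rose in both. For *MIGA1* the log2 fold changes were −1.76 without and −1.73 under IFNγ, for *SLC7A11* −1.16 and −1.22, for *YAP1* −1.13 and −0.94, and for *HMOX1* 1.02 and 0.93.

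The difference between both effects was tested as an interaction, and 21 genes (0.099%) were called, 8 with a more positive effect under IFNγ and 13 with a more negative one. At an unadjusted p under 0.05 there were 1722, DESeq2 called 28, and leaving out single libraries gave 8 (without PD-L1si replicate 3) to 40 (without Cnsi replicate 1 under IFNγ). Of the 21 genes 6 were among those called without IFNγ. *CX3CL1*, the membrane-bound chemokine fractalkine, had a log2 fold change of 0.57 without and −0.40 under IFNγ, and *IFI6* of 0.51 and −0.01. *BDKRB2*, the bradykinin B2 receptor, was at 10.4 to 11.5 CPM with Cnsi and 20.6 to 22.0 CPM with PD-L1si without IFNγ (0.94), and had 0.27 under IFNγ. *AASS*, an enzyme of lysine degradation, fell by 1.06 without IFNγ and had −0.10 under it. The other genes were *IL4I1* (0.52 and −0.03, the call without IFNγ being lost without PD-L1si replicate 3) and the pseudogene *OR2I1P* (0.72 and −0.11). *BDKRB2*, *AASS*, *IL4I1* and *OR2I1P* were named after their values were seen. *CD274* fell by 1.42 without and by 0.94 under IFNγ, a difference of 0.47 that was not called.

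**Figure D5:**
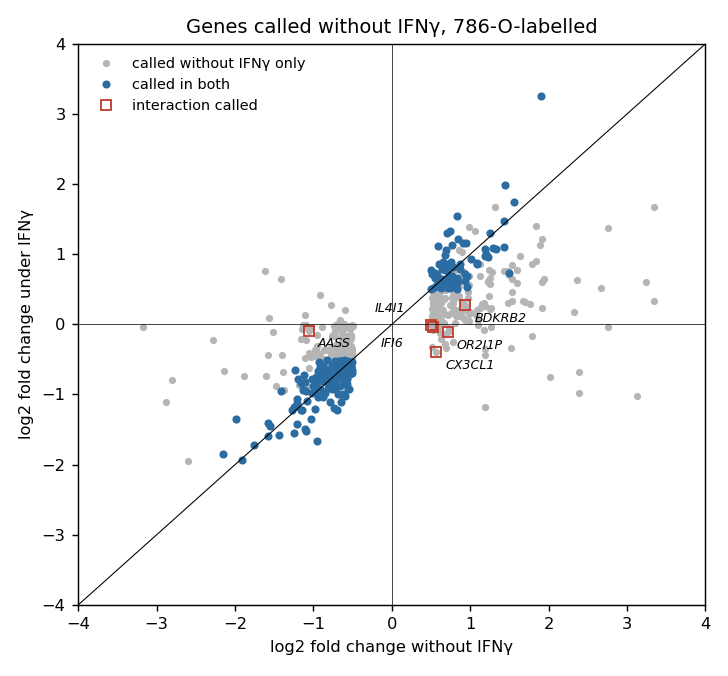
Log2 fold change of PD-L1si over Cnsi without IFNγ against that under IFNγ for the 597 genes called without IFNγ in the libraries labelled 786-O, 3 of which lie outside the axes. The 245 genes called in both (blue) lie in the lower left and upper right, and red squares mark the 6 genes with a called interaction.

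In the libraries labelled A498 the same comparison without IFNγ called 1504 of the 17999 genes tested under both labels (8.36%). Of the 516 genes called here and tested there, 224 (43.4%) were also called there, 215 in the same direction, and they were 14.9% of the calls there. The difference of the effects between the labels was called for 806 genes (4.48%). *CD274* fell by 1.42 here and by 2.47 there, a called difference of 1.06. *HMOX1* rose by 1.02 here and had 0.13 there, and the difference was called. For *MIGA1*, *CETN2*, *YAP1* and *CDC42SE2* the log2 fold changes were −1.76, −1.58, −1.13 and −1.55 here and −1.60, −1.67, −1.18 and −1.39 there, with no difference called. In all 4 comparisons of PD-L1si with Cnsi, which share no library, 97 genes were called in the same direction, 74 of them lower. Of the 61 of these lower genes that were in the 3′ UTR set 19 (31.1%) held GCGAATT, and of 18 higher genes 1 did (5.56%), against 1.23% of all 10742 genes. The comparison that chose the word is among the 4, so these shares are not an independent test of it.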

How the data were processed

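The study's methods and the processing notes of the submitters name bcl2fastq 2.19.0, Trimmomatic 0.36.6, HISAT2 2.1.0 and featureCounts 1.6.3, with alignment to GRCh38 and counting on GENCODE genes in stranded mode. Whether the strand setting stated fits the library kit was not tested, so antisense genes are uncertain. The deposited values are raw counts per gene without normalization or filter, on 39321 rows, and 0 columns had no sample. A later GENCODE release (GRCh38) supplied names, positions and 3′ UTRs, and matched 39148 rows by Ensembl identifier.

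Genes with at least 10 counts summed over the 3 libraries of a group were tested. The 12 libraries labelled 786-O were scaled with TMM and fitted in a single quasi-likelihood model (edgeR 4.0.16, R 4.3.3, robust), with a common biological coefficient of variation of 0.056. Label differences were fitted on all 24 libraries. The Benjamini-Hochberg adjustment was used over all genes tested. The precision that depth and 3 replicates allow is given by each standard error. It is the absolute log2 fold change divided by the square root of the F statistic, and so rests on all libraries in the fit.

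Named genes were *CD274*, *PDCD1LG2*, the 15 largest rises and falls (called, mean of at least 1 CPM, no overlap), up to 5 called members of each list or the member nearest to a call, and genes of the study's own interest. The members and the 30 lists were chosen with earlier results of these data known. Alternatives were DESeq2 1.42.0, other scaling, filters, thresholds and fits, a replicate block, and each library left out. The 3′ UTR words were counted in Python 3.11.15. A few genes are not reported here.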

Additional observations from a re-analysis of the deposited data

Results flagged for a closer look

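The results below were singled out because the effect of PD-L1si differed between 2 settings by a test of the difference itself (edgeR, adjusted p under 0.05 and a log2 difference over 0.5). Groups of 3 libraries are too small for a test of single outlying libraries.

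Between the libraries with and without IFNγ labelled 786-O, the effect of PD-L1si under IFNγ minus that without was positive for 8 genes. The differences were 0.96 for *AASS*, 0.81 for *LHX8*, 0.72 for *OLFML3*, 0.70 for *SPX*, 0.65 for *LINC02532*, 0.62 for *SLC19A2*, 0.62 for *KLHL4* and 0.56 for *ZNF395*. It was negative for 13 genes, among them −0.97 for *CX3CL1*, −0.83 for *OR2I1P*, −0.74 for *SFR1*, −0.71 for *STEAP1*, −0.71 for *PPP1R9A*, −0.69 for *KCTD12*, −0.67 for *BDKRB2*, −0.57 for *KLF7*, −0.57 for *ITGA2*, −0.55 for *IL4I1*, −0.52 for *IFI6* and −0.52 for *L1CAM*. Of the genes given here all but *CX3CL1* and *IFI6* were named after their values were seen.

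Between the labels, without IFNγ and among the named genes called in the libraries labelled 786-O, the effect there minus that in the libraries labelled A498 was positive for 16 genes. The differences included 1.67 for *OR2I1P*, 1.61 for *BDKRB2*, 1.41 for *RPL41P5*, 1.41 for *PPP1CB-DT*, 1.38 for *IL4I1*, 1.24 for *IFI6*, 1.17 for *C3*, 1.11 for *KRT7*, 1.06 for *CD274*, 0.89 for *SEMA5B*, 0.89 for *C1S*, 0.89 for *HMOX1*, 0.57 for *INHBB*, 0.52 for *CHST11* and 0.51 for *BHLHE41*. It was negative for 4 genes, with −2.26 for *RPL9P7*, −0.84 for *PEG10*, −0.81 for *SNAI2* and −0.71 for *GLRB*. A difference does not give the direction under each label. *IFI6* and *C3* rose in the libraries labelled 786-O (0.51 and 0.62) and fell in those labelled A498 (−0.73 and −0.54). *CD274* fell under both labels (−1.42 and −2.47). The label, the sequencing instrument and the line cannot be told apart in these differences.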

How the results depend on the processing

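The fall of *CD274* was called under all alternatives, with log2 fold changes of −1.61 to −1.27 without each library in turn. The 597 calls of PD-L1si against Cnsi without IFNγ became 449 with DESeq2 (440 of them shared), and lay between 477 and 640 without each library in turn. With the adjusted p alone there were 2721, and with a log2 fold change over 1 there were 145. Under IFNγ the 643 calls became 2974 and 163 under these thresholds, and 505 to 665 without each library. The 21 interaction calls became 46 and 0, with 47 without a count filter and 8 to 40 without each library (8 without PD-L1si replicate 3, 10 without Cnsi replicate 1, 13 without Cnsi replicate 2, 40 without Cnsi replicate 1 under IFNγ and 11 without PD-L1si replicate 1 or 2 under IFNγ). Differences between labels became 2176 with the adjusted p alone. Of the 73 other named genes with a call 13 lost it under some alternative, and 0 of the values reversed.

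With a replicate block 600 genes were called without IFNγ, 636 under IFNγ, 18 for the interaction and 808 between the labels, and *CD274* fell by 1.42. The deviations of same-numbered Cnsi and PD-L1si libraries correlated at 0.098, −0.31 and 0.075, so the numbers were not taken to pair the libraries. Called genes of low count rest on few reads, and rows at 0 under the label could not be judged.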
